A study of Saccharomyces cerevisiae with 12 samples.

Results

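Ribonucleotide reductase and DNA damage response genes of budding yeast (Saccharomyces cerevisiae) were followed across 4 strains in growing cultures to which no damaging agent is said to have been added. The 9 genes were RNR1, RNR2, RNR3, RNR4, SML1, HUG1, DUN1, RAD54 and DDR48, chosen by name through the gene symbols of the array's probe sets. Each was read by 1 probe set, so all 9 of 9 were found among the 5448 genes measured, and none of these probe sets was of a kind shared between genes. No cutoff on their values was used, but the list was chosen with earlier results of these data known.

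The bmh mutant (strain YLL1087) carried the temperature-sensitive allele bmh1-170ts and lacked BMH2, the genes of the yeast 14-3-3 proteins, which bind phosphorylated partner proteins. The hdac mutant (CTY-TY44) lacked HDA1 and RPD3, which each encode the enzyme at the core of a histone deacetylase complex. The combined mutant (KBY3) carried all of these mutations, and the wild type was W303-1A (labelled W303-CH1A), the genetic background of every strain. There were 3 samples of each strain, from cells growing exponentially in YP medium containing 5% glucose at 30 °C, and each RNA was hybridised to 1 Affymetrix Yeast Genome 2.0 array. Nothing says whether the 3 came from separate cultures, so the p-values measure only the spread between these samples, which may be technical. The labels do not say how far bmh1-170ts is impaired at this temperature. Each group is 1 named strain.

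Ribonucleotide reductase makes deoxyribonucleotides, the building blocks of DNA, from ribonucleotides. Its large subunit is Rnr1, with Rnr3 as a little-used relative that DNA damage induces, and its small subunit is a pair of Rnr2 and Rnr4. When DNA is damaged or replication stalls, the kinases Mec1, Rad53 and Dun1 act in sequence. They remove the inhibitor Sml1 and release the repressor Crt1 (the RFX1 gene product) from RNR2, RNR3, RNR4 and HUG1. Crt1 represses through the Tup1-Cyc8 corepressor, a complex known to work with histone deacetylases. In yeast, 14-3-3 proteins are known to bind Rad53.

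Values are log2 signals made by robust multi-array averaging (RMA), so a difference of 1 is a 2-fold change. They compare a gene between strains, not one gene with another. Array medians lay between 8.81 and 8.85, and 3 arrays per strain limit the precision. BMH2, HDA1 and RPD3 were between 3.68 and 4.13 on the 18 occasions where the genotype says they are absent, which sets the background. Where present by genotype, the lowest mean was 8.22 for HDA1, 9.61 for RPD3 and 11.64 for BMH2, each in wild-type cells. Median SDs over genes were 0.065 in bmh cells, 0.068 in hdac cells, 0.067 in combined-mutant cells and 0.14 in wild-type cells. On wild-type array 1, 61 genes stood at least 2-fold from the other wild-type arrays, against 0 to 6 genes on each other array, and none of the 9 genes was among them. The strains also differed in mating type transcripts. The hdac arrays had the pattern of alpha cells, and the arrays of the other 3 strains that of a cells. By these transcripts the hdac mutant and the wild type are thus not matched in mating type. The mean signal of 7 a-cell markers was 10.58 to 10.65 in bmh cells, 5.88 to 5.99 in hdac cells, 9.03 to 9.06 in combined-mutant cells and 10.85 to 10.91 in wild-type cells. That of 4 alpha-cell markers was 5.57 to 5.79, 9.999 to 10.02, 5.93 to 5.96 and 5.53 to 5.66 in the same order of strains.

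Loss of the deacetylases went with higher RNA of nearly the whole group. In hdac cells 8 of the 9 genes rose and 0 fell relative to the wild type, where 71.4% of all genes measured were called, 29.8% higher and 41.6% lower. In combined-mutant cells 8 rose and 0 fell relative to the wild type, against 30.4% higher and 45.2% lower among all genes (75.7% called). Within the bmh background, 9 of 9 were higher in combined-mutant than in bmh cells and 0 lower, against 30.1% higher and 45.0% lower among all genes (75.0% called). The arrays of the strains compared did not overlap for 8, 8 and 9 of the 9 genes in these comparisons, against 71.3%, 75.3% and 82.9% of all genes. The median log2 change of the 9 genes was 0.52 in hdac cells, where that of all genes was -0.090, and 0.73 in combined-mutant cells, where it was -0.13. Mating type transcripts differed between these strains as well. In hdac cells 7 of 7 a-cell markers were called lower and 4 of 4 alpha-cell markers higher than in the wild type. In combined-mutant cells 6 of 7 a-cell markers were lower, and of 4 alpha-cell markers 1 was higher and 1 lower. Between the hdac mutant and the wild type, the parts of mating type and of the deletions cannot be told apart. In combined-mutant cells the part of mating type in the changes of the 9 genes was not tested. A call is an adjusted p under 0.05 in limma. The comparisons of the hdac mutant with the wild type and of the combined with the bmh mutant share no arrays. The same fit of all 12 arrays gave the spread used in both.

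**Figure D1:**
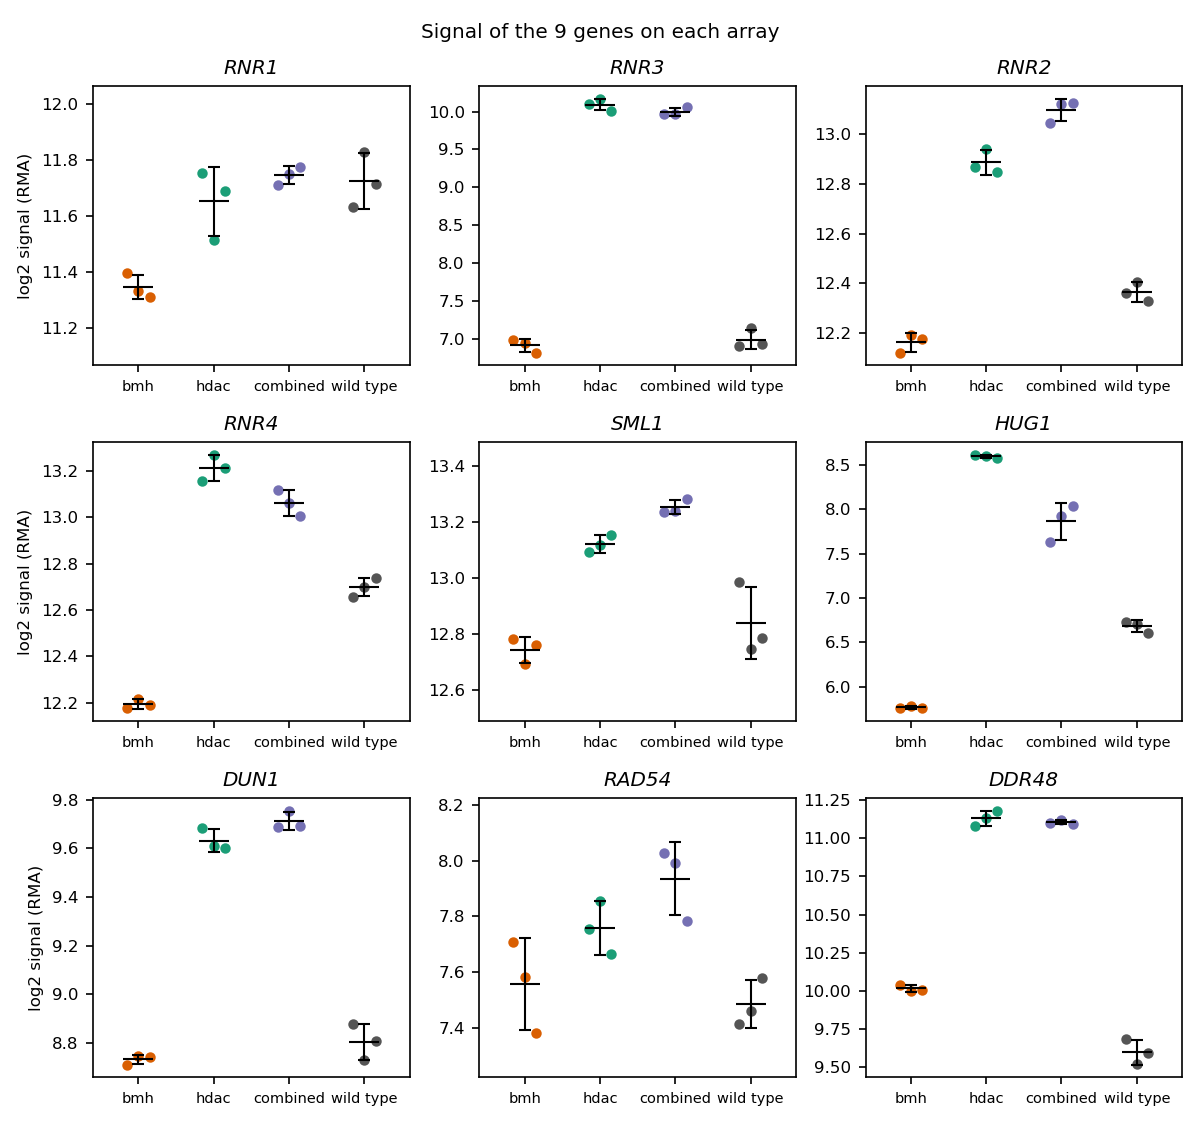
RMA log2 signal of each gene on each of the 12 arrays, with coloured points for single arrays, bars for the strain mean and whiskers for the SD (n = 3). Each panel has its own vertical scale. RNR3, HUG1, DUN1 and DDR48 are higher in the hdac and combined mutants, while RNR1 is lowest in bmh cells.

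RNR1 encodes the large subunit that supplies most of the enzyme in dividing cells. Its log2 signals were 11.39, 11.33 and 11.31 in bmh cells, 11.75, 11.52 and 11.69 in hdac cells and 11.71, 11.75 and 11.78 in combined-mutant cells, against 11.63, 11.83 and 11.72 in wild-type cells. The bmh arrays were below all others, and the other 3 strains overlapped. RNR1 fell by 0.38 ± 0.072 in bmh cells (log2 change ± SE, n = 3 per strain, adjusted p = 0.00173), a 1.30-fold lower signal. It differed by -0.072 ± 0.072 in hdac cells (95% confidence interval -0.23 to 0.084) and by 0.020 ± 0.072 in combined-mutant cells (-0.14 to 0.18), neither of which passed the test. In RNA of a whole culture, fewer expressing cells and less RNA per cell cannot be told apart.

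RNR3 showed the largest change of the group. This gene for the alternative large subunit is kept low in undamaged cells and is a classic reporter of DNA damage in yeast. Its signals were 6.99, 6.94 and 6.82 in bmh cells, 10.10, 10.17 and 10.01 in hdac cells and 9.96, 9.97 and 10.06 in combined-mutant cells, against 6.90, 7.14 and 6.93 in wild-type cells. The strains without HDA1 and RPD3 lay far above the other strains, and within each of these pairs of strains the arrays overlapped. RNR3 rose by 3.10 ± 0.076 in hdac cells (adjusted p = 9.67e-12), which is 8.60-fold, and only 0.844% of all genes had a larger change in either direction. It rose by 3.01 ± 0.076 in combined-mutant cells (adjusted p = 9.47e-12), or 8.04-fold. The 14-3-3 mutations had no called effect on RNR3, at -0.073 ± 0.076 against the wild type (95% interval -0.24 to 0.092) and -0.096 ± 0.076 between the combined and hdac mutants (-0.26 to 0.069). In both strains where RNR3 rose, its relative RNR1 was not called. Whether the probe sets of these related genes read each other's RNA was not tested.

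The small-subunit genes moved less, and both fell in bmh cells and rose in hdac and combined-mutant cells relative to the wild type. Between the combined and hdac mutants RNR2 differed by 0.21 ± 0.053 and RNR4 by -0.15 ± 0.054, the latter a borderline call. RNR2, whose product carries the tyrosyl radical, had signals of 12.12, 12.19 and 12.18 in bmh cells, 12.87, 12.94 and 12.85 in hdac cells and 13.04, 13.12 and 13.12 in combined-mutant cells, against 12.36, 12.41 and 12.33 in wild-type cells. No strain overlapped another. RNR2 fell by 0.20 ± 0.053 in bmh cells (adjusted p = 0.0118), rose by 0.52 ± 0.053 in hdac cells (adjusted p = 2.73e-06) and rose by 0.73 ± 0.053 in combined-mutant cells (adjusted p = 9.84e-08). The fall in bmh cells missed the threshold without bmh array 1 (adjusted p = 0.0518) and in a fit of only the bmh and wild-type arrays (adjusted p = 0.0605).

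RNR4, the partner that keeps Rnr2 in its active form, had signals of 12.18, 12.22 and 12.19 in bmh cells, 13.16, 13.27 and 13.21 in hdac cells and 13.12, 13.06 and 13.01 in combined-mutant cells, against 12.66, 12.70 and 12.74 in wild-type cells. Again no strain overlapped another, with the bmh mutant lowest and the hdac mutant highest. RNR4 fell by 0.50 ± 0.054 in bmh cells (adjusted p = 2.52e-05), the largest fall among the 4 subunit genes. It rose by 0.51 ± 0.054 in hdac cells (adjusted p = 3.65e-06) and by 0.36 ± 0.054 in combined-mutant cells (adjusted p = 5.89e-05).

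The inhibitors are small proteins. SML1 encodes the inhibitor that binds the large subunit and is destroyed when the checkpoint is active. Its signals were 12.78, 12.69 and 12.76 in bmh cells, 13.09, 13.12 and 13.15 in hdac cells and 13.24, 13.24 and 13.28 in combined-mutant cells, against 12.98, 12.75 and 12.78 in wild-type cells. Both strains without the deacetylases lay above the others, and the bmh and wild-type arrays overlapped. SML1 rose by 0.28 ± 0.065 in hdac cells (adjusted p = 0.00188) and by 0.41 ± 0.065 in combined-mutant cells (adjusted p = 8.94e-05), and its difference of -0.095 ± 0.065 in bmh cells did not pass (adjusted p = 0.301).

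HUG1, a related small protein induced by damage and by blocked replication, responded to both mutations in opposite directions. Its signals were 5.76, 5.79 and 5.75 in bmh cells, 8.61, 8.61 and 8.58 in hdac cells and 7.63, 7.92 and 8.04 in combined-mutant cells, against 6.73, 6.71 and 6.61 in wild-type cells. No strain overlapped another, and the combined mutant lay between the hdac mutant and the wild type, with array 1 its lowest. HUG1 fell by 0.92 ± 0.087 in bmh cells (adjusted p = 8.29e-06), a 1.89-fold lower signal. It rose by 1.91 ± 0.087 in hdac cells (adjusted p = 2.13e-09), or 3.77-fold, and by 1.18 ± 0.087 in combined-mutant cells (adjusted p = 1.14e-07), or 2.27-fold. Within the hdac background, HUG1 was 1.66-fold lower in combined-mutant than in hdac cells (-0.73 ± 0.087, adjusted p = 4.07e-05). RNR3 and HUG1 are both known Crt1 targets, and their values for the 14-3-3 comparisons stood at -0.073 and -0.92 against the wild type and at -0.096 and -0.73 within the hdac background.

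HUG1 and SML1 lie next to each other on chromosome XIII in the RefSeq annotation of assembly R64. On the other side of HUG1, NTE1 changed by -0.26 ± 0.071 in bmh cells, 0.59 ± 0.071 in hdac cells and 0.20 ± 0.071 in combined-mutant cells, and CMP2, beyond SML1, by 0.31 ± 0.093, -0.018 ± 0.093 and 0.11 ± 0.093 (log2 against the wild type). For CMP2 the values in the hdac and combined mutants did not pass. Beside RNR3 on chromosome IX, FIS1 rose by 0.94 ± 0.074 in hdac cells and 0.64 ± 0.074 in combined-mutant cells, and YIL067C, at 0.040 ± 0.070 and -0.097 ± 0.070, did not pass. These neighbours are named for their position alone.

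DUN1 encodes the checkpoint kinase that acts on Sml1 and Crt1. Its signals were 8.71, 8.75 and 8.74 in bmh cells, 9.69, 9.61 and 9.60 in hdac cells and 9.69, 9.75 and 9.69 in combined-mutant cells, against 8.88, 8.73 and 8.81 in wild-type cells. The strains without the deacetylases were higher on every array, and the bmh and wild-type arrays overlapped. DUN1 rose by 0.83 ± 0.055 in hdac cells (adjusted p = 6.27e-08) and by 0.91 ± 0.055 in combined-mutant cells (adjusted p = 1.88e-08), or 1.77-fold and 1.88-fold. In bmh cells it differed by -0.071 ± 0.055 (adjusted p = 0.358).

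RAD54, which encodes a motor protein of homologous recombination and is damage-inducible, rose slightly in hdac cells and more in combined-mutant cells. Its signals were 7.71, 7.58 and 7.38 in bmh cells, 7.76, 7.86 and 7.66 in hdac cells and 8.03, 7.99 and 7.79 in combined-mutant cells, against 7.42, 7.46 and 7.58 in wild-type cells. The bmh arrays spanned the wild-type ones and overlapped the hdac arrays, which in turn overlapped the combined ones. Both the hdac and the combined arrays lay above the wild-type arrays. RAD54 rose by 0.27 ± 0.094 in hdac cells (adjusted p = 0.0205) and by 0.45 ± 0.094 in combined-mutant cells (adjusted p = 0.000865). The call in hdac cells ended without hdac array 2 (adjusted p = 0.0801) or wild-type array 2 (adjusted p = 0.0519).

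DDR48, a damage-responsive gene that also answers to heat and osmotic stress, rose in all 3 mutants. Its signals were 10.04, 10.003 and 10.01 in bmh cells, 11.08, 11.13 and 11.18 in hdac cells and 11.10, 11.12 and 11.09 in combined-mutant cells, against 9.68, 9.52 and 9.59 in wild-type cells. The wild type was lowest, the bmh mutant came next, and the hdac and combined arrays overlapped at the top. DDR48 rose by 0.42 ± 0.055 in bmh cells (adjusted p = 0.000131), by 1.53 ± 0.055 in hdac cells (adjusted p = 2.89e-10) and by 1.50 ± 0.055 in combined-mutant cells (adjusted p = 2.32e-10). Of 8 general stress genes listed beside it, 8 rose in hdac cells (29.8% of all genes) and 8 in combined-mutant cells (30.4%), with 3.33 ± 0.23 and 2.65 ± 0.23 for the small heat shock gene HSP26. In bmh cells 4 of the 8 stress genes rose and 1 fell (14.8% and 17.2% of all genes), but 2 rose without wild-type array 2 or 3, and 0 fell without bmh array 3. The largest of these rises was that of HSP12, at 3.81 ± 0.50 (adjusted p = 0.000119). It stayed called whichever array was left out, at 3.38 to 4.65. The mean of the 8 stress genes spanned 6.86 to 7.70 over the wild-type arrays, a spread that DDR48 did not share. HSP12 had an SD of 1.46 (n = 3) over these arrays.

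**Figure D2:**
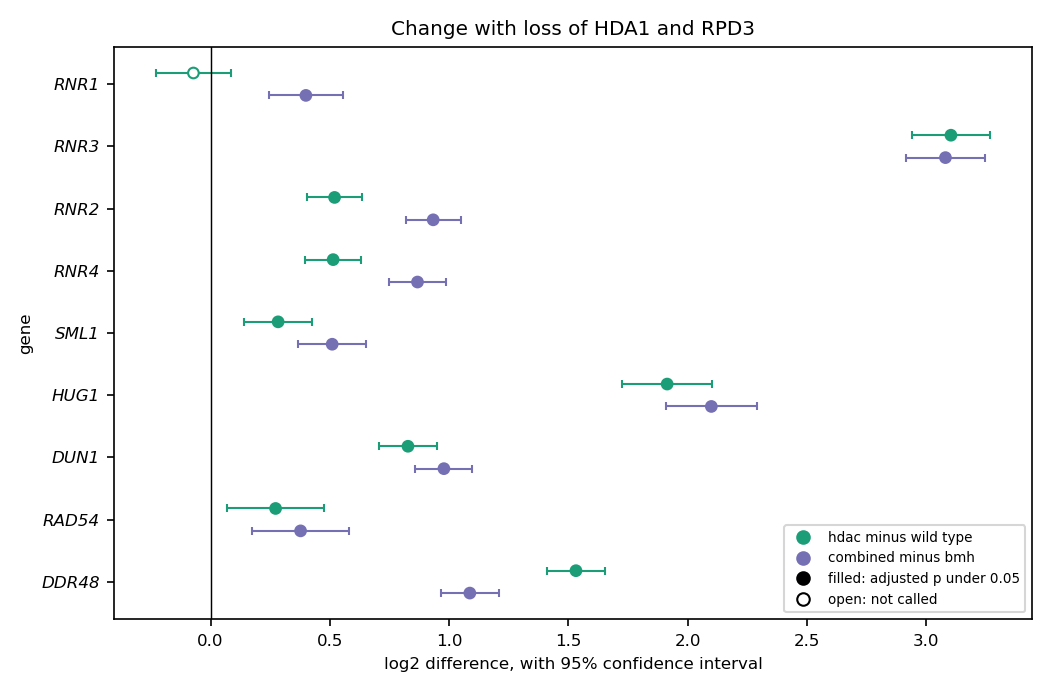
Log2 difference with loss of HDA1 and RPD3 for each gene, as hdac minus wild type (green) and combined minus bmh (purple), with 95% confidence intervals from limma and filled points for adjusted p under 0.05. RNR3 lies near 3 in both comparisons, which share no arrays but use the same estimate of spread. RNR1 is called in the second comparison only.

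The effect of the deacetylase deletions was read a second time within the bmh background. RNR3 was higher by 3.08 ± 0.076 in combined-mutant than in bmh cells (adjusted p = 1.35e-11), HUG1 by 2.10 ± 0.087 (adjusted p = 8.35e-10) and DUN1 by 0.98 ± 0.055 (adjusted p = 1.35e-08). RNR2 and RNR4 were higher by 0.93 ± 0.053 and 0.87 ± 0.054, DDR48 by 1.09 ± 0.055, SML1 by 0.51 ± 0.065, RNR1 by 0.40 ± 0.072 and RAD54 by 0.38 ± 0.094. The combined arrays lay above the bmh arrays for all 9 genes. Among all genes, 82.9% did not overlap between these strains, in either direction. Mating type transcripts differed here too, although both strains had the a-cell pattern. The alpha-cell marker MF(ALPHA)1 averaged 3.81 in combined-mutant and 4.09 in bmh cells, near the background, against 11.64 in hdac cells. Of 7 a-cell markers 0 were called higher and 6 lower in combined-mutant than in bmh cells, with a median of -1.74 and BAR1 at -3.27 ± 0.094. Of 4 alpha-cell markers 1 was higher, SAG1 at 1.38 ± 0.093, and 2 were lower. The part of mating type in these differences was not tested. RNR3, HUG1 and DUN1 differed by 3.08, 2.10 and 0.98 between these strains, against 3.10, 1.91 and 0.83 between the hdac mutant and the wild type. For RNR1, RNR2 and RNR4 the values were 0.40, 0.93 and 0.87, against -0.072, 0.52 and 0.51. DDR48 had 1.09 against 1.53, and the interaction was called for RNR1, RNR2, RNR4 and DDR48. SML1 had 0.51 against 0.28, and RAD54 0.38 against 0.27.

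The bmh mutations went with smaller changes. In bmh cells 4 of the 9 genes fell and 1 rose, against 17.2% and 14.8% of all genes (32.0% called), and the 4 were RNR1, RNR2, RNR4 and HUG1. Within the hdac background, the combined mutant was lower than the hdac mutant for 2 genes (18.9% of all genes) and higher for 1 (17.5%, with 36.4% called). In each of these comparisons the arrays did not overlap for 5 of the 9 genes, against 41.2% of all genes for bmh and wild type and 58.6% for combined and hdac. HUG1 was lower by the value above, RNR4 differed by -0.15 ± 0.054 (adjusted p = 0.0463) and RNR2 by 0.21 ± 0.053 (adjusted p = 0.00843). The RNR4 call was borderline and ended in 8 of the 12 fits that left out 1 array, with adjusted p-values up to 0.157. RNR1 (0.092 ± 0.072), SML1 (0.13 ± 0.065), DUN1 (0.079 ± 0.055), RAD54 (0.18 ± 0.094) and DDR48 (-0.027 ± 0.055) did not pass, and SML1 passed without wild-type array 1 (adjusted p = 0.0295). Here the combined and hdac mutants also differ in mating type transcripts, and the parts of mating type and 14-3-3 function cannot be told apart.

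**Figure D3:**
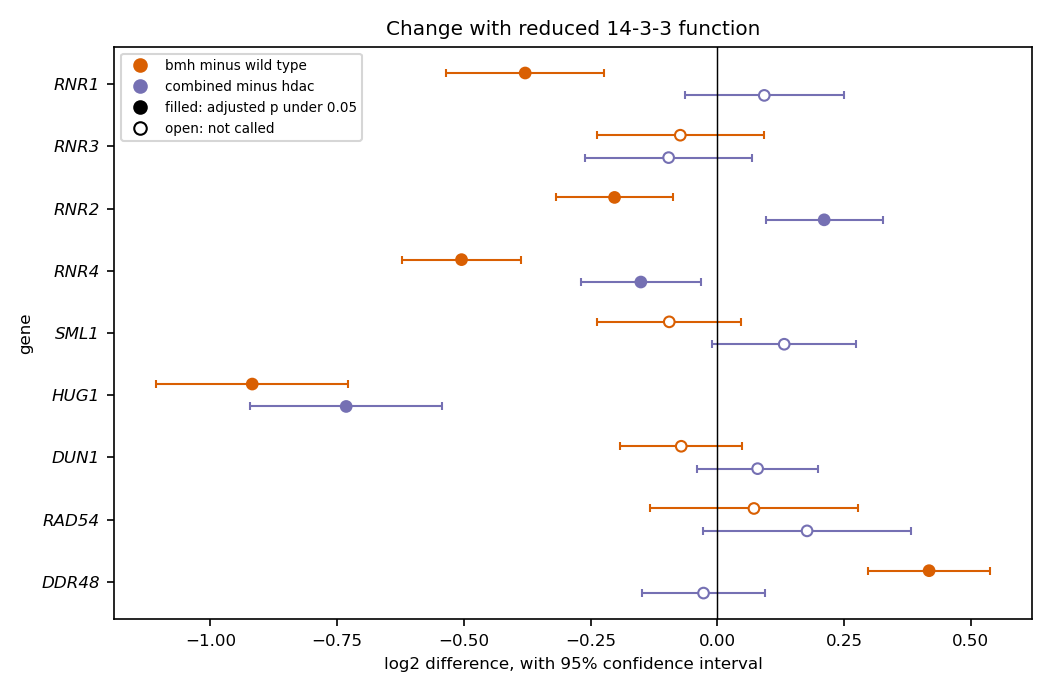
Log2 difference with reduced 14-3-3 function for each gene, as bmh minus wild type (orange) and combined minus hdac (purple), with 95% confidence intervals from limma and filled points for adjusted p under 0.05. HUG1 is lower in both comparisons, whereas RNR2 is lower in the first and higher in the second.

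Whether the 2 kinds of mutation added up on the log2 scale was tested with the interaction, the change in the combined mutant less the sum of the changes in the bmh and hdac mutants. It was called for 4 of the 9 genes, 3 above 0 and 1 below, against 12.3% and 11.3% of all genes (23.7% called). RNR1 (0.47 ± 0.10, adjusted p = 0.00533), RNR2 (0.41 ± 0.075, adjusted p = 0.00179) and RNR4 (0.35 ± 0.077, adjusted p = 0.00556) were higher in the combined mutant than the sum of the single changes. DDR48 was lower than the sum (-0.44 ± 0.078, adjusted p = 0.00150). RNR3 (-0.023 ± 0.11, 95% interval -0.26 to 0.21), HUG1 (0.19 ± 0.12, -0.083 to 0.45), SML1 (0.23 ± 0.092, 0.026 to 0.43), DUN1 (0.15 ± 0.078, -0.019 to 0.32) and RAD54 (0.10 ± 0.13, -0.19 to 0.39) did not pass. For HUG1 the interaction was 0.30 and passed (adjusted p = 0.0263) without combined array 1. The bmh and wild-type values enter this interaction, so it is not independent of the changes in bmh cells.

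Of 10 genes listed for control of RNR genes or of the enzyme's location, 0 rose and 3 fell in bmh cells (14.8% and 17.2% of all genes), 6 rose and 3 fell in hdac cells (29.8% and 41.6%), and 2 rose and 4 fell in combined-mutant cells (30.4% and 45.2%). The calls in bmh cells were thus near the share of all genes, and those in combined-mutant cells fewer. The median change was -0.15 in bmh cells, 0.46 in hdac cells and -0.069 in combined-mutant cells, where all genes had -0.011, -0.090 and -0.13. The falls in bmh cells were those of WTM1 (-1.30 ± 0.087, adjusted p = 3.46e-07), whose product holds Rnr2 and Rnr4 in the nucleus, of its relative WTM2 (-0.79 ± 0.099, adjusted p = 9.14e-05) and of DIF1 (-0.51 ± 0.095, adjusted p = 0.00159), which brings them there. Without wild-type array 1 the 3 falls were 6. The 2 rises among combined-mutant arrays were 1 without bmh array 1, hdac array 1 or 3, combined array 1 or 2, or wild-type array 1 or 3. WTM1 averaged 10.52 ± 0.074 (SD, n = 3) in bmh cells, 12.22 ± 0.027 (SD, n = 3) in hdac cells and 11.77 ± 0.023 (SD, n = 3) in combined-mutant cells, against 11.83 ± 0.21 (SD, n = 3) in wild-type cells. In bmh cells, RNR2, RNR4, WTM1, WTM2 and DIF1 were all called lower.

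RFX1, which encodes Crt1 and is itself a Crt1 target, averaged 6.93 ± 0.14 (SD, n = 3) in bmh cells, 7.50 ± 0.076 (SD, n = 3) in hdac cells and 7.82 ± 0.078 (SD, n = 3) in combined-mutant cells, against 6.98 ± 0.17 (SD, n = 3) in wild-type cells. It rose by 0.84 ± 0.093 in combined-mutant cells (adjusted p = 4.45e-06), while the corepressor gene CYC8 fell by 0.51 ± 0.090 and IXR1, whose product is needed for full RNR1 expression, fell by 0.79 ± 0.11. TUP1 rose by 0.77 ± 0.058 in hdac cells (adjusted p = 1.78e-07) and was lower by 0.99 ± 0.058 in combined-mutant than in hdac cells. MBP1, the DNA-binding part of the factor that drives RNR1 in late G1, fell by 0.60 ± 0.073 in hdac cells and NRM1, a corepressor of the same factor, rose by 0.58 ± 0.058.

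**Figure D4:**
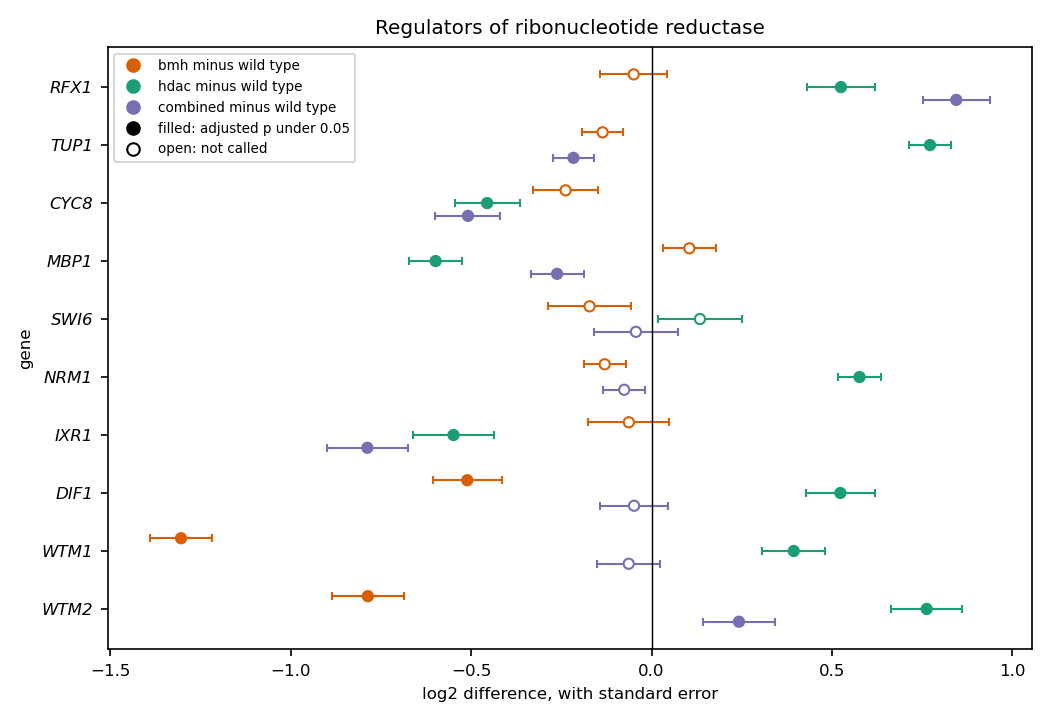
Log2 difference against the wild type for 10 regulators of ribonucleotide reductase in the bmh (orange), hdac (green) and combined (purple) mutants, with standard errors and filled points for adjusted p under 0.05. WTM1, WTM2 and DIF1 are below 0 in bmh cells and above it in hdac cells.

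Of 14 genes of the checkpoint that acts on these genes, 1 rose and 3 fell in bmh cells (14.8% and 17.2% of all genes), 5 rose and 5 fell in hdac cells (29.8% and 41.6%) and 5 rose and 5 fell in combined-mutant cells (30.4% and 45.2%). The total called was near that of all genes in both strains without the deacetylases. The median change of the list was -0.031 in bmh cells, -0.083 in hdac cells and 0.0033 in combined-mutant cells. Without bmh array 1 or 2 there were 0 rises and 1 fall among bmh calls, without wild-type array 1 there were 2 rises, and without wild-type array 2 or 3 there were 0. In hdac cells the kinase genes TEL1 (0.71 ± 0.10) and MEC1 (0.61 ± 0.068) rose, and the adaptor gene RAD9 (-0.98 ± 0.095) and the replication factor gene DPB11 (-0.85 ± 0.15) fell. RAD53, the kinase above Dun1 and named here after its values were seen, was at -0.15 ± 0.061 in bmh cells, which did not pass, and rose by 0.49 ± 0.061 in hdac cells and 0.28 ± 0.061 in combined-mutant cells.

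Of 14 other damage-inducible genes measured, 6 rose and 1 fell in bmh cells (14.8% and 17.2% of all genes), 8 rose and 2 fell in hdac cells (29.8% and 41.6%) and 10 rose and 1 fell in combined-mutant cells (30.4% and 45.2%). Their median change was 0.23 in bmh cells, 0.36 in hdac cells and 0.40 in combined-mutant cells. In combined-mutant cells the largest were DDR2 (3.07 ± 0.29), a general stress gene, a probe set for DDI3 (2.43 ± 0.17), whose close copy DDI2 it may also read, the polyubiquitin gene UBI4 (1.86 ± 0.088) and the excision nuclease gene RAD2 (1.11 ± 0.068). In bmh cells the repair genes RAD16 (0.91 ± 0.15), MAG1 (0.68 ± 0.11) and RAD2 (0.56 ± 0.068) rose while HUG1, RNR1, RNR2 and RNR4 fell. The 2 falls in hdac cells were 1 without hdac array 1 or 3. RFX1 counts in this list as well as among the regulators, and DDR2 also among the stress genes.

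Of 15 measured genes of homologous recombination, the pathway of RAD54, 5 rose and 2 fell in bmh cells (14.8% and 17.2% of all genes), 7 rose and 3 fell in hdac cells (29.8% and 41.6%) and 7 rose and 4 fell in combined-mutant cells (30.4% and 45.2%). The total called was near that of all genes in the hdac and combined mutants. The median change was 0.16 in bmh cells, 0.020 in hdac cells and 0.15 in combined-mutant cells. RAD50 (1.03 ± 0.093) and RDH54 (0.92 ± 0.058), a relative of RAD54, rose in combined-mutant cells and MRE11 (-0.68 ± 0.065) fell, whose product works in a complex with Rad50. The rises in bmh cells were 3 without bmh array 1, and the falls 1 without bmh array 3 or wild-type array 3. XRS2, the further member of that complex, fell by 0.64 ± 0.14 in bmh cells.

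Of 8 genes for other steps of deoxyribonucleotide synthesis, 1 rose and 5 fell in bmh cells (14.8% and 17.2% of all genes), 1 rose and 5 fell in hdac cells (29.8% and 41.6%) and 1 rose and 6 fell in combined-mutant cells (30.4% and 45.2%). Falls outnumbered rises among all genes too. The median change of the 8 was -0.26 in bmh cells, -0.22 in hdac cells and -0.58 in combined-mutant cells. DFR1, dihydrofolate reductase, fell by 0.70 ± 0.068 in bmh cells, 0.58 ± 0.068 in hdac cells and 0.95 ± 0.068 in combined-mutant cells, and the deoxycytidylate deaminase gene DCD1 fell by 0.99 ± 0.077 in combined-mutant cells. DUT1, which removes dUTP, fell by 0.57 ± 0.067 in bmh cells and 0.63 ± 0.067 in combined-mutant cells. Genes of the thioredoxin and glutaredoxin systems, which supply the enzyme with electrons, rose in 5 of 6 and fell in 1 of 6 cases in hdac cells (29.8% and 41.6% of all genes), with GRX1 at 1.63 ± 0.14 and TRX2 at 0.77 ± 0.088. In bmh cells the thioredoxin genes TRX1 and TRX2 fell by 0.54 ± 0.066 and 0.46 ± 0.088.

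Of 16 replication genes that, like RNR1, are transcribed in late G1, 1 rose and 6 fell in bmh cells (14.8% and 17.2% of all genes), 6 rose and 3 fell in hdac cells (29.8% and 41.6%) and 6 rose and 3 fell in combined-mutant cells (30.4% and 45.2%). Their median change was -0.14 in bmh cells, 0.068 in hdac cells and 0.087 in combined-mutant cells. PRI1, a primase subunit, fell by 0.39 ± 0.062 in bmh cells and RFA3, of the single-strand binding protein, by 0.37 ± 0.079, beside the fall of 0.38 in RNR1. The rise in bmh cells was 2 rises without combined array 1 or wild-type array 1, and the 3 falls in combined-mutant cells were 5 without combined array 1. The mean of the 16 genes was 8.83 to 8.90 over the bmh, 9.08 to 9.11 over the hdac and 9.03 to 9.14 over the combined arrays, against 8.92 to 9.06 over the wild-type arrays. The part of cell cycle distribution in the RNR1 difference was not tested.

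**Figure D5:**
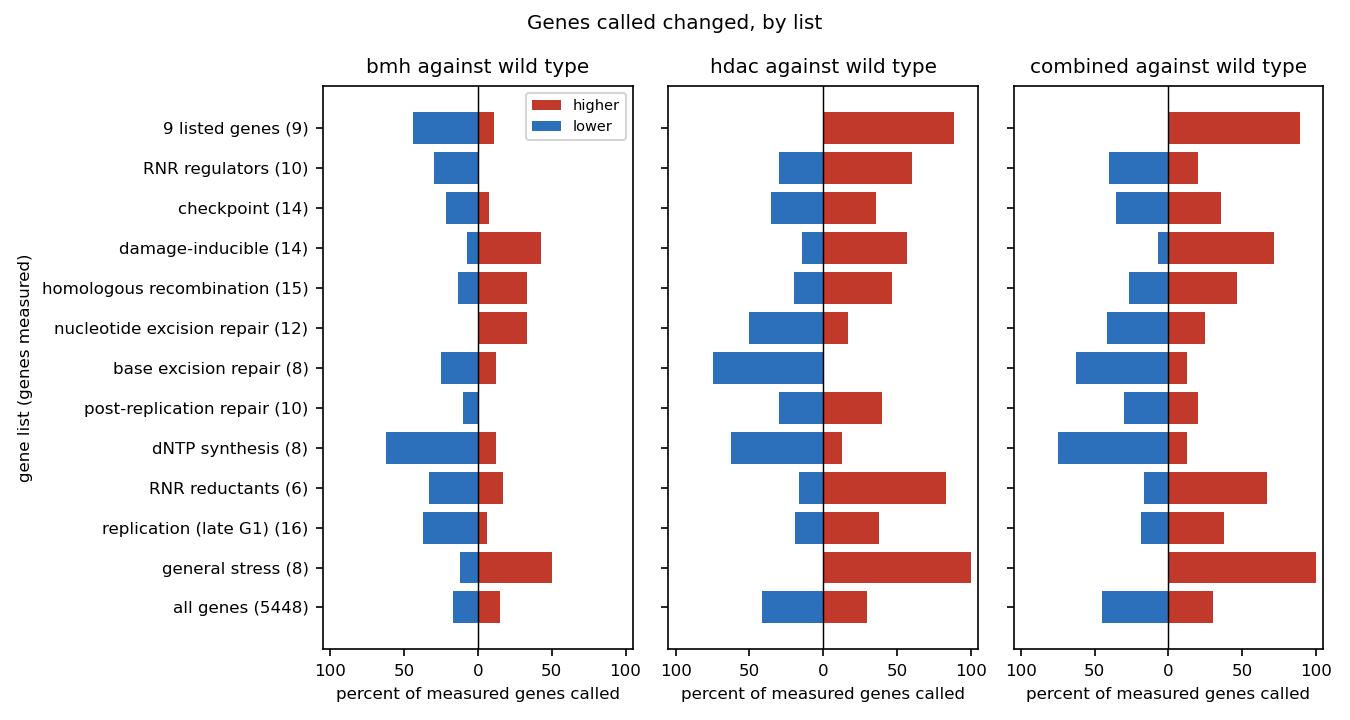
Percent of the measured genes of each list called higher (red, right) or lower (blue, left) at adjusted p under 0.05, against the wild type in the bmh, hdac and combined mutants, with the genes measured in brackets and all 5448 genes at the bottom. The 9 listed genes and the 8 stress genes have no lower calls in the hdac and combined mutants, where 41.6% and 45.2% of all genes were lower.

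The genes with the most similar profiles were found from the root mean square difference of the 3 log2 changes against the wild type, over 4 strain means. Nearest to RNR3 was RRT12, at -0.15 in bmh cells, 3.06 in hdac cells and 3.13 in combined-mutant cells (difference 0.084), followed by CIS1 (0.15) and FMP23 (0.16). Nearest to HUG1 was HES1, at -0.87, 1.78 and 0.94 in the same order of strains (0.16), followed by AAC3 (0.20) and DBP1 (0.30). DDR48 was closest to PTP1 (0.030), YGR067C (0.13) and HEF3 (0.13), and DUN1 to MAM3 (0.026), PIF1 (0.038) and DCI1 (0.043).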

How the data were processed

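Total RNA of 12 samples was labelled with a 3' IVT kit from 250 ng, per the labels' protocols. The deposited log2 signals come from RMA; the submitters' processing notes name the affy package, with versions and genome build not given in the sources used here; base 2 was inferred from RMA and the value range. Groups follow the titles and genotype labels. The source name fields swap the strain names KBY3 and CTY-TY44, and signals of deleted genes followed the genotype labels. Of 5715 probe sets, 5497 had 1 gene symbol in GEO's platform annotation, 0 had more than 1 and 218 lacked one. Entrez identifiers in RefSeq's table replaced 12 symbols, and the probe set with the highest mean was kept per gene (49 dropped).

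A means model of the 4 groups was fitted with limma 3.58.1 (R 4.3.3; lmFit, eBayes with 8 residual and 3.82 prior degrees of freedom), with Benjamini-Hochberg adjustment over 5448 genes and calls at adjusted p under 0.05; intervals are 95%. The code was tested on simulated data. Same-numbered bmh and combined arrays had deviations with r = 0.135, 0.100 and 0.129, and no label states a pairing. Arrays of unlike number reached a larger r, at 0.192 for combined array 1 and wild-type array 3. A replicate block was also fitted. Between the bmh and combined mutants it changed no member's call. The members and gene lists were chosen with earlier results of these data known. Named are all 9 members, up to 4 called genes per list with the largest change, neighbours on the chromosome and nearest profiles.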

Additional observations from a re-analysis of the deposited data

Results flagged for a closer look

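For 4 of the 9 genes the effect of deleting HDA1 and RPD3 differed between the bmh and the BMH backgrounds by the test of the interaction. Among all genes 23.7% were called in this test, 12.3% above 0 and 11.3% below. RNR1 was 0.40 ± 0.072 between the combined and bmh mutants and -0.072 ± 0.072 between the hdac mutant and the wild type, an interaction of 0.47. RNR2 had 0.93 ± 0.053 and 0.52 ± 0.053 in these comparisons (interaction 0.41), and RNR4 had 0.87 ± 0.054 and 0.51 ± 0.054 (interaction 0.35). DDR48 went the other way, with 1.09 ± 0.055 and 1.53 ± 0.055 (interaction -0.44). These calls passed in every one of the 12 fits that left out 1 array, with adjusted p-values up to 0.0163 for RNR1, 0.00726 for RNR2, 0.0178 for RNR4 and 0.00569 for DDR48. The hdac mutant differs from the other strains in mating type transcripts too, and the part of mating type in these values cannot be told apart.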

How the results depend on the processing

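Called directions of the 9 genes did not reverse under any alternative that was run. Among values that were never called, RNR1 in combined-mutant cells was -0.044 and the RNR3 interaction 0.059 with array weights. Leaving out 1 array gave ranges of -0.0028 to 0.16 for RAD54 and -0.12 to 0.00077 for RNR3 in bmh cells, -0.027 to 0.072 for RNR1 in combined-mutant cells and -0.097 to 0.020 for the RNR3 interaction. Between the combined and hdac mutants, 6 members were called with array weights, where SML1, DUN1 and RAD54 passed, against 3 without. Counts over all genes moved by more than 1.5 times in a few cases. The 1742 calls of the bmh comparison were 1093 with only its own arrays and 1076 at adjusted p under 0.01. The 1982 calls between the combined and hdac mutants were 3213 with array weights and 1279 at 0.01. The 1289 interaction calls were 2233 with array weights, 738 at 0.01 and 1051 to 1962 with 1 array left out, 1962 being without wild-type array 1. Counts of called list genes moved as far. In bmh cells the 3 falls of RNR regulators were 6 with array weights, the 4 rises of stress genes were 2 and the 5 rises of recombination genes 3 with only the bmh and wild-type arrays or at 0.01, the 1 rise and 3 falls of checkpoint genes were 0 and 1 under both, and the 1 checkpoint rise was 4 with array weights. The 5 falls of deoxyribonucleotide synthesis genes in bmh cells were 3 at 0.01. In combined-mutant cells the 5 checkpoint rises were 3 with quantile normalization, the 2 regulator rises were 1 and the 3 falls of replication genes 5 with array weights, and in hdac cells the 2 falls of damage-inducible genes were 1 with median centring. With the replicate block on all arrays, RNR4 between the combined and hdac mutants did not pass (-0.15, adjusted p = 0.0731), and no other member's call changed; the same numbers are not known to mark a shared batch. With the block and only the bmh and combined arrays, a choice made after seeing the data, 9 members were called. SML1 passed for the interaction with trend and robust eBayes (adjusted p = 0.0378). The interaction needs all 4 groups and was not run on fewer. Causes of these differences were not tested.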

Other observations

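Of 8 base excision repair genes, 0 rose and 6 fell in hdac cells (29.8% and 41.6% of all genes), led by the glycosylase genes NTG2 (-1.50 ± 0.12), OGG1 (-0.73 ± 0.12) and UNG1 (-0.52 ± 0.084). In combined-mutant cells 1 rose, MAG1 (0.72 ± 0.11), and 5 fell (30.4% and 45.2% of all genes), with NTG2 at -1.20 ± 0.12. Of 12 nucleotide excision repair genes 2 rose and 6 fell in hdac cells (29.8% and 41.6% of all genes), and 3 rose and 5 fell in combined-mutant cells, near the shares of all genes. In hdac cells the damage recognition gene RAD23 (-1.11 ± 0.058) fell and the nuclease gene RAD2 (0.82 ± 0.068) rose. In bmh cells 4 of these 12 rose and 0 fell (14.8% and 17.2% of all genes), with RAD16 at 0.91 ± 0.15 and RAD28 at 0.64 ± 0.071.

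Of 10 post-replication repair genes 4 were higher and 3 lower in hdac cells, a total near the 71.4% of all genes called. REV7, of the translesion polymerase zeta, fell by 1.47 ± 0.12 in hdac cells and 1.17 ± 0.12 in combined-mutant cells. RAD18, the ubiquitin ligase of this pathway, was lower by 1.15 ± 0.097 in combined-mutant than in hdac cells (adjusted p = 2.21e-06). Values are log2 differences from limma, n = 3 per strain, and each named value passed the test.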
